A study of Mus musculus with 18 samples.

Results

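Myc and 38 genes for making ribosomes, 39 genes in all, were followed through the maturation of invariant natural killer T (iNKT) cells in the mouse thymus, with and without the Hippo pathway kinase MST1. The genes were listed by name as MYC itself and well known nucleolar factors, and each was read from a probe set that names no other gene, the brightest where there were several. Of the 39 genes 36 had such a probe set, and all 36 were among the 13034 genes tested, which came from 22180 genes with a probe set of 1 gene symbol. Fbl, Tsr1 and Mrto4 shared their probe sets with other gene symbols and were not analysed here.

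The data are 18 microarrays, 3 for each of 6 groups, from C57BL/6 mice. The WT groups are labelled wild type, with no allele named. The Mst1KO groups are Cd4Cre Mst1 fl/fl mice, in which the Cd4 promoter drives Cre in developing T cells and so removes Stk4, the gene for MST1, from conventional T cells as well as from iNKT cells. All groups were sorted as TCRb+ cells that bind a loaded CD1d tetramer and lack CD24, then split into S1 (CD44-, NK1.1-), S2 (CD44+, NK1.1-) and S3 (CD44+, NK1.1+); ages are not given in the labels. The series gives 3 mice per genotype without tying an array to an animal, and the p-values here rest on differences among arrays that could in part be technical.

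MYC, paired with MAX, binds DNA at E-box motifs and raises transcription of genes for cell growth, many of which act in ribosome production. Ribosomes are built in the nucleolus, where RNA polymerase I makes the ribosomal RNA precursor, small nucleolar ribonucleoproteins (snoRNPs) modify it, and assembly factors fold and cut it into the small and the large subunit. In the thymus, young iNKT cells divide rapidly at S1 and S2 and mostly stop dividing at S3, and MYC is known to be needed for their early expansion.

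The start regions of 5 members are shown because they hold the motif through which MYC acts, or come from genes with clear falls in level and lack it. They are the 150 bases before the annotated start, 5′ to 3′ on the gene's strand, from RefSeq on build GRCm38.p6. Capitals mark the canonical E-box CACGTG, which reads the same on both strands, or the ETS core CCGGAA on either strand. They come from Nop2 at chr6:125131733-125131882 (plus strand), Imp4 at chr1:34439679-34439828 (plus strand), Nop58 at chr1:59684856-59685005 (plus strand), Nop16 at chr13:54590075-54590224 (minus strand) and Ncl at chr1:86359456-86359605 (minus strand).
Nop2: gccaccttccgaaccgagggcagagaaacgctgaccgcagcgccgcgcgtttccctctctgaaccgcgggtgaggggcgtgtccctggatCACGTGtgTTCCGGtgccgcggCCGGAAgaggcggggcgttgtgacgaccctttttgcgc
Imp4: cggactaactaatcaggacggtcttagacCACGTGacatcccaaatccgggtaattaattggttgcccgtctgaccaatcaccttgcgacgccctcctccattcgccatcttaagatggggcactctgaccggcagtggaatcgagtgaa
Nop58: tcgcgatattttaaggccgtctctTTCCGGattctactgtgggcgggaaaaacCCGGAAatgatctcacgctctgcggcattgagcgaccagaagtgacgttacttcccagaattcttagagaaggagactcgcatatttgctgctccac
Nop16: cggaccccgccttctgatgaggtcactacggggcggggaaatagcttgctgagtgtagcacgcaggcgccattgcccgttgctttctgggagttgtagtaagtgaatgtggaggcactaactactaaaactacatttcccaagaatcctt
Ncl: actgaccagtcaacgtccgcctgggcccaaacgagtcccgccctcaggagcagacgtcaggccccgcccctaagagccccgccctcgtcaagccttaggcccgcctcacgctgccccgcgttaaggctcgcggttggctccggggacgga
RefSeq's table of start regions, 250 bases before to 50 after each start, held 30 of the 36 members; Myc, Npm1, Bop1, Rrp12, Rrs1 and Dcaf13 had no entry there. The E-box lay in 8 of these 30 (26.7%): Imp4, Nop2, Utp20, Pes1, Mybbp1a, Nle1, Rrn3 and Wdr43. Among 10213 tested genes with a start region the share was 11.4%, and 8.09% of all 27025 listed genes held it. None of the 9 members with an entry that fell from S2 to S3 in WT held the E-box, and 8 of the 21 others did. From S1 to S3 the split was not complete, as Nop2, Utp20 and Mybbp1a, which hold the E-box, were called lower in both genotypes. The rest of the 8 were called lower in neither. The ETS core, searched after the E-box count had been seen, lay in 15 of 30 members (50%) against 29.5% of tested genes and 16.7% of the table. The 2 motifs share no overlapping letters in the windows shown. These matches are a description of letters in a window and were not tested.

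Within groups the arrays were close to one another, with r across single-gene probe sets between 0.9886 and 0.9934. The deleted gene, Stk4, did not pass the test, with Mst1KO minus WT differences of -0.29, -0.35 and -0.39 over the 3 stages (adjusted p = 0.34, 0.173 and 0.0767), with every Mst1KO array below every WT array of its stage. Its probe set was not matched to the floxed part of the gene, so it is a weak check of the labels. T cell markers were high in all groups, with group means of Cd3e from 11.55 to 12.06 and of the iNKT factor Zbtb16 from 10.15 to 11.77. Klrb1c, the gene for NK1.1, rose by 3.24 ± 0.23 from S2 to S3 in WT and by 3.84 ± 0.23 in Mst1KO, as the gates require. Cd24a, whose product the sort selects against, also rose in that step, by 0.82 ± 0.19 in WT and 0.74 ± 0.19 in Mst1KO. Values are log2 expression, brought to a common scale over arrays by the authors, so a change in total RNA per cell is not measured. Differences are log2 differences ± SE with 3 arrays a group, and a gene is called at an adjusted p under 0.05. In these sorted pools, fewer cells of a type and less RNA per cell cannot be told apart.

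**Figure D1:**
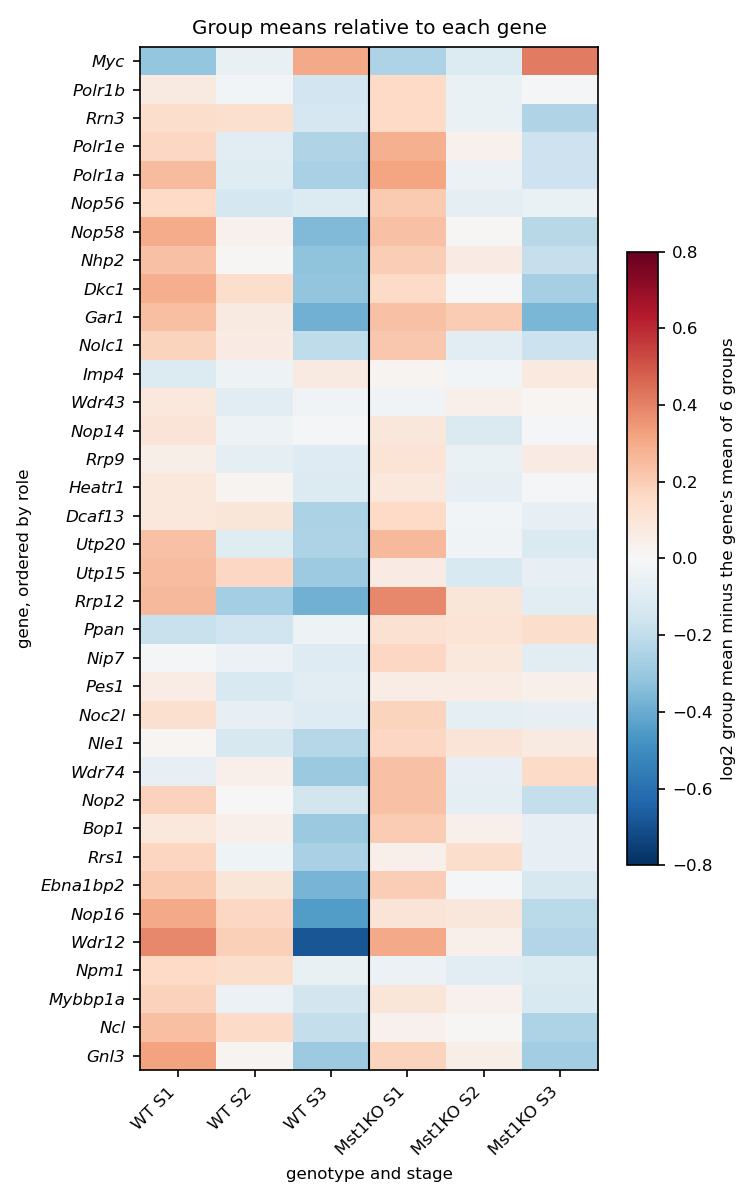
Group mean of each of the 36 genes minus that gene's mean over the 6 groups (log2, colour), with genotype and stage across and genes ordered by role, Myc first. Myc is highest at S3 in both genotypes, while most rows below it go from red at S1 to blue at S3; the deepest blue is Wdr12 in WT S3.

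Myc was higher at S3 than at S1 in both genotypes, while 20 of 35 ribosome genes in WT and 15 of 35 in Mst1KO were lower. From S1 to S3, a comparison added after the neighbouring stages had been seen, Myc was 1.53-fold higher in WT and 1.58-fold higher in Mst1KO. Of all genes 15.4% in WT and 12.3% in Mst1KO were called higher, and 18.4% and 14.4% were called lower. None of the 35 ribosome genes rose. All 15 genes that fell in Mst1KO were among the 20 that fell in WT, which makes 75% of the WT list and 100% of the Mst1KO list. The genotypes share no arrays, but each gene's spread was estimated over all 18 arrays, so the 2 lists are not independent. The overlap among all genes is not given here. The changes were small, with Wdr12 in WT (2.10-fold) the only one beyond 2-fold.

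Myc measured 8.66, 8.49 and 8.93 on the 3 WT S1 arrays, 8.85, 8.92 and 9.04 at S2, and 9.43, 9.16 and 9.32 at S3. Mst1KO gave 8.48, 8.91 and 8.86 across the S1 arrays, 8.73, 8.79 and 9.16 across the S2 arrays and 9.32, 9.41 and 9.49 across the S3 arrays. All S3 arrays thus lay above all S1 and S2 arrays of the same genotype, while S1 and S2 overlapped in both. The rise from S1 to S3 was 0.61 ± 0.14 in WT (adjusted p = 0.0027) and 0.66 ± 0.14 in Mst1KO (adjusted p = 0.00205), and both calls held without any 1 array. By single steps, S2 to S3 gave 0.51 ± 0.14 in Mst1KO (adjusted p = 0.0179), a call lost without Mst1KO S2 replicate 1 or 2 or S3 replicate 2 or 3, and 0.37 ± 0.14 in WT (adjusted p = 0.0719), which did not pass. The 2 genotypes' rises from S1 to S3 differed by 0.05 with a 95% confidence interval from -0.38 to 0.47.

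**Figure D2:**
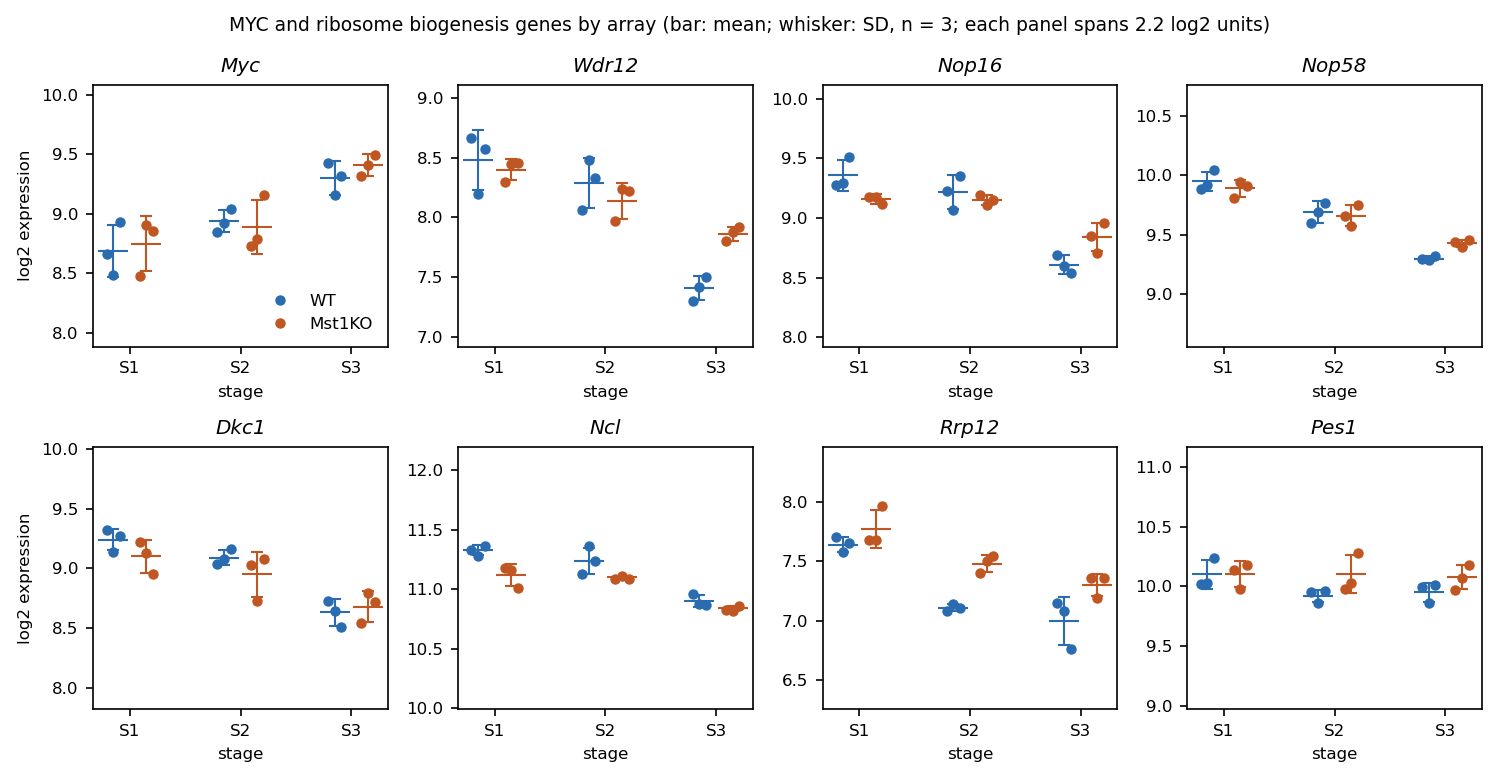
Log2 expression (y axis, each panel 2.2 units high) on every array for 8 genes by stage (x axis), WT in blue and Mst1KO in orange, with group mean and SD (n = 3). Myc climbs to S3, Wdr12, Nop16, Nop58, Dkc1 and Ncl drop at S3, Rrp12 drops at S2 in WT, and Pes1 stays between 9.86 and 10.28.

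Over the whole set, 20 of 36 members (55.6%) were called lower from S1 to S3 in WT, where 18.4% of all tested genes were called lower and 33.8% were called at all. In Mst1KO 15 of 36 (41.7%) were lower, against 14.4% of all genes, and 26.6% were called at all. Most members were bright, and 35 of 36 lay above the median level of the tested genes. With the filter at the 75th percentile, which keeps brighter genes, 2033 of 7500 genes were called lower in WT and 1578 of 7500 in Mst1KO. Those shares are larger than the shares of all tested genes. Of the 35 members other than Myc, 33 in WT and 32 in Mst1KO had a difference below 0, where 50.5% and 51.2% of all genes did, and the members' medians were -0.35 and -0.26. Without Mst1KO S1 replicate 1 or S1 replicate 3 the Mst1KO members called came to 10, and without Mst1KO S3 replicate 2 to 9, in place of 16 with Myc counted; in WT they ranged from 15 to 22 around 21 over the fits without 1 array.

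**Figure D3:**
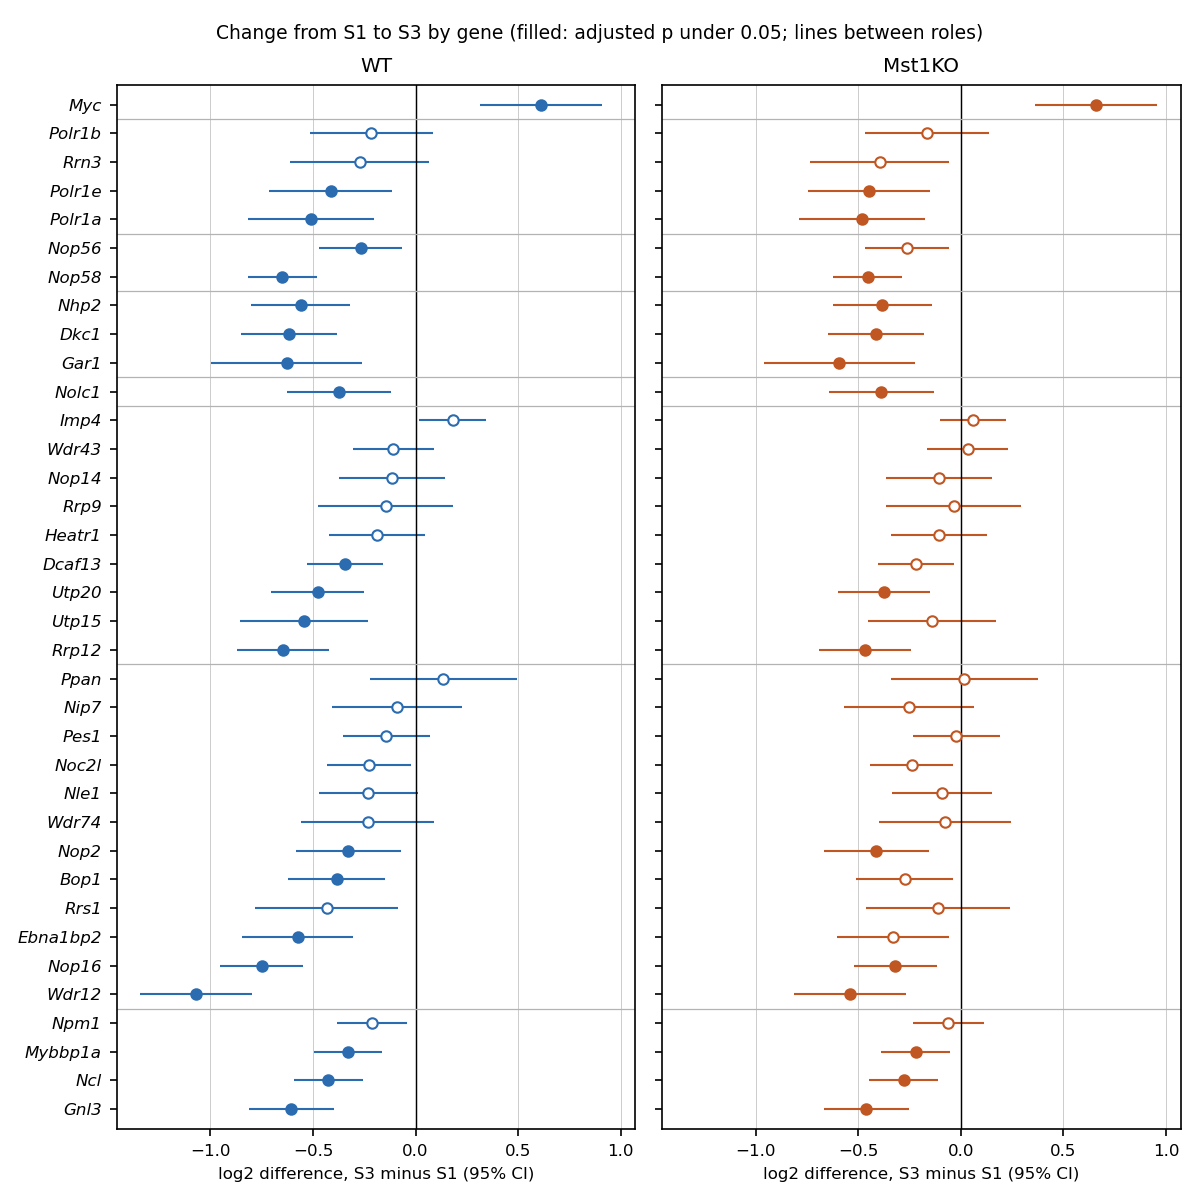
Log2 difference S3 minus S1 with 95% confidence interval (x axis) for 36 genes ordered by role (y axis), WT left in blue and Mst1KO right in orange; filled points have an adjusted p under 0.05. Myc stands alone to the right of 0 among the filled points, and 20 genes in WT and 15 in Mst1KO are filled to the left.

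RNA polymerase I was represented by its largest subunit Polr1a, its second largest subunit Polr1b, the subunit Polr1e, and Rrn3, the factor that lets the enzyme start. Polr1a measured 8.46, 8.33 and 8.48 across the S1 arrays, 7.99, 8.13 and 8.10 across the S2 arrays and 7.69, 7.89 and 8.17 across the S3 arrays in WT. The Mst1KO values were 8.66, 8.34 and 8.49 across the S1 arrays, 7.86, 8.44 and 8.09 across the S2 arrays and 8.03, 7.84 and 8.17 across the S3 arrays. The S3 arrays lay below the S1 arrays in both genotypes, and the S2 arrays overlapped with S3. Polr1a fell by 0.51 ± 0.15 in WT (adjusted p = 0.0115) and by 0.48 ± 0.15 in Mst1KO (adjusted p = 0.0203) from S1 to S3, and Polr1e by 0.41 ± 0.14 and 0.45 ± 0.14 (adjusted p = 0.0319 and 0.0257). Polr1b and Rrn3 did not pass in either genotype, with WT differences of -0.22 and -0.27. The Polr1a call was lost without WT S3 replicate 1 and, in Mst1KO, without S1 replicate 1 or S3 replicate 2. The Polr1e call was lost without WT S1 replicate 3 or S3 replicate 2 or 3, and in Mst1KO without any of the 3 S1 arrays or S3 replicate 2.

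In the box H/ACA particles, which turn uridine into pseudouridine, all 3 measured genes fell from S1 to S3 in both genotypes: the enzyme Dkc1 (dyskerin) by 0.62 ± 0.11 in WT and 0.42 ± 0.11 in Mst1KO, Nhp2 by 0.56 ± 0.11 and 0.38 ± 0.11, and Gar1 by 0.63 ± 0.17 and 0.59 ± 0.17. Adjusted p-values were 0.00031, 0.000986 and 0.00969 in WT and 0.00941, 0.0188 and 0.0171 in Mst1KO. The share of all genes called lower was 18.4% in WT and 14.4% in Mst1KO. Dkc1 measured 9.32, 9.14 and 9.27 across the S1 arrays, 9.04, 9.08 and 9.16 across the S2 arrays and 8.73, 8.64 and 8.51 across the S3 arrays in WT. In Mst1KO it measured 9.22, 9.13 and 8.95, then 9.03, 8.73 and 9.08, then 8.54, 8.79 and 8.72. The WT S3 arrays lay below all earlier WT arrays, and the Mst1KO S3 arrays below S1 but overlapping S2.

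In the box C/D particles, which add methyl groups to ribosomal RNA, the scaffold proteins Nop56 and Nop58 were measured. Nop58 read 9.88, 9.92 and 10.04 across the S1 arrays, 9.60, 9.69 and 9.77 across the S2 arrays and 9.30, 9.29 and 9.32 across the S3 arrays in WT. In Mst1KO it read 9.81, 9.94 and 9.91, then 9.66, 9.57 and 9.75, then 9.44, 9.40 and 9.46. No stage overlapped with the next in either genotype, each being lower than the one before. The fall from S1 to S3 was 0.65 ± 0.08 in WT (adjusted p = 7.31e-06) and 0.46 ± 0.08 in Mst1KO (adjusted p = 0.000377). Nop56 fell by 0.27 ± 0.10 in WT (adjusted p = 0.0411) and was at -0.26 ± 0.10 in Mst1KO (adjusted p = 0.0565). Nolc1, a chaperone that brings snoRNPs to the nucleolus, fell by 0.37 ± 0.12 in WT (adjusted p = 0.0241) and 0.39 ± 0.12 in Mst1KO (adjusted p = 0.0243). Of the snoRNP calls, those of Nop58 held without any 1 array in both genotypes and those of Dkc1 and Nhp2 in WT. In WT, Gar1 lost its call without S1 replicate 3 or S3 replicate 3, Nolc1 without S1 replicate 3 or S3 replicate 2, and Nop56 without S1 replicate 3, any S3 array or Mst1KO S3 replicate 1. In Mst1KO, Dkc1 lost its call without S3 replicate 1, Gar1 and Nolc1 without S1 replicate 3 or S3 replicate 1, and Nhp2 without S1 replicate 2 or 3 or S3 replicate 1 or 2.

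Among 9 small subunit factors, 4 fell from S1 to S3 in WT and 2 in Mst1KO. These shares are 44.4% and 22.2%, against 18.4% and 14.4% of all genes called lower. Rrp12, which acts in the maturation and export of the precursor particles, changed most: 7.70, 7.58 and 7.65 across the S1 arrays, 7.08, 7.14 and 7.11 across the S2 arrays and 7.15, 7.08 and 6.76 across the S3 arrays in WT. Mst1KO read 7.68, 7.68 and 7.96, then 7.40, 7.50 and 7.54, then 7.36, 7.19 and 7.36. All WT S2 and S3 arrays lay below all Mst1KO arrays of any stage. Its fall was 0.65 ± 0.11 in WT (adjusted p = 0.00014) and 0.47 ± 0.11 in Mst1KO (adjusted p = 0.00298). Utp20, a scaffold of the early processing complex, fell by 0.48 ± 0.11 and 0.37 ± 0.11 (adjusted p = 0.002 and 0.0144). Utp15 and Dcaf13, proteins of the same complex, fell in WT by 0.54 ± 0.15 and 0.35 ± 0.09 (adjusted p = 0.00858 and 0.00534) and stood at -0.14 and -0.22 in Mst1KO (adjusted p = 0.557 and 0.0777). Heatr1, Wdr43, Rrp9, Nop14 and Imp4 did not pass in either genotype, Imp4 with differences above 0 of 0.18 ± 0.08 in WT and 0.06 ± 0.08 in Mst1KO. These calls held without any 1 array, except Utp20 in Mst1KO without S1 replicate 1 or S3 replicate 2.

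Among 12 large subunit factors, 5 fell from S1 to S3 in WT (Bop1, Wdr12, Nop2, Nop16 and Ebna1bp2) and 3 in Mst1KO (Wdr12, Nop2 and Nop16). These shares are 41.7% and 25%, against 18.4% and 14.4% of all genes called lower. Wdr12, Bop1 and Pes1 form the PeBoW complex, which is needed to process the RNA of the large subunit, and the 3 behaved unequally. Wdr12 measured 8.67, 8.20 and 8.57 across the S1 arrays, 8.06, 8.48 and 8.33 across the S2 arrays and 7.30, 7.42 and 7.50 across the S3 arrays in WT. In Mst1KO it measured 8.30, 8.45 and 8.46, then 7.97, 8.24 and 8.22, then 7.80, 7.88 and 7.92. Its S3 arrays lay below all earlier arrays of the same genotype, and the WT S3 arrays below every other array of the study. It fell by 1.07 ± 0.13 in WT (adjusted p = 5.67e-06) and 0.54 ± 0.13 in Mst1KO (adjusted p = 0.00467).

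Bop1 fell by 0.38 ± 0.11 in WT (adjusted p = 0.013) and stood at -0.27 ± 0.11 in Mst1KO (adjusted p = 0.0824). Pes1 differed by -0.14 in WT (95% confidence interval -0.36 to 0.07) and by -0.02 in Mst1KO (-0.23 to 0.19). Nop16, a nucleolar protein of the large subunit precursors, measured 9.28, 9.29 and 9.51 across the S1 arrays, 9.23, 9.07 and 9.35 across the S2 arrays and 8.69, 8.60 and 8.54 across the S3 arrays in WT. In Mst1KO it measured 9.18, 9.18 and 9.12, then 9.19, 9.11 and 9.15, then 8.85, 8.71 and 8.96. It held nearly level over S1 and S2 and was lower on all S3 arrays, by 0.75 ± 0.10 from S1 in WT (adjusted p = 1.02e-05) and 0.32 ± 0.10 in Mst1KO (adjusted p = 0.0193). Nop2, a methyltransferase of the large subunit RNA, fell by 0.33 ± 0.12 and 0.41 ± 0.12 (adjusted p = 0.0469 and 0.0178), and Ebna1bp2, an assembly factor, by 0.58 ± 0.13 in WT (adjusted p = 0.00212) with -0.33 ± 0.13 in Mst1KO (adjusted p = 0.068).

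Nle1, Wdr74, Rrs1, Ppan, Nip7 and Noc2l, further large subunit factors, did not pass in either genotype. A second, slightly dimmer probe set of Ppan went the other way and was called lower in both, by 0.43 ± 0.10 in WT and 0.31 ± 0.10 in Mst1KO (adjusted p = 0.00192 and 0.0227), so the call on Ppan depends on the probe set. The calls of Wdr12 held without any 1 array in both genotypes, and those of Nop16 and Ebna1bp2 in WT. The WT call of Bop1 was lost without S1 replicate 3 or S3 replicate 2, and that of Nop2 in 11 of the 18 fits without 1 array, among them each of the 3 WT S3 arrays. In Mst1KO, Nop2 lost its call without S1 replicate 3 or S3 replicate 1 or 2, and Nop16 without S1 replicate 1 or 2 or S3 replicate 2.

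Of 4 nucleolar proteins with several tasks, Ncl, Gnl3 and Mybbp1a fell from S1 to S3 in both genotypes. The share of all genes called lower was 18.4% in WT and 14.4% in Mst1KO. Ncl (nucleolin, an abundant protein that binds ribosomal RNA precursors) measured 11.33, 11.28 and 11.36 across the S1 arrays, 11.13, 11.36 and 11.24 across the S2 arrays and 10.96, 10.88 and 10.87 across the S3 arrays in WT. In Mst1KO it measured 11.18, 11.16 and 11.01, then 11.09, 11.11 and 11.09, then 10.83, 10.82 and 10.86. The S3 arrays were below all earlier ones within each genotype, with falls from S1 of 0.42 ± 0.08 in WT (adjusted p = 0.000438) and 0.28 ± 0.08 in Mst1KO (adjusted p = 0.0139). Gnl3 (nucleostemin, a nucleolar GTPase of dividing cells) fell by 0.61 ± 0.10 and 0.46 ± 0.10 (adjusted p = 0.000123 and 0.0019). Mybbp1a, a nucleolar protein that binds transcription factors, fell by 0.33 ± 0.08 and 0.22 ± 0.08 (adjusted p = 0.00342 and 0.0466), and its Mst1KO call was lost in 16 of 18 fits without 1 array. Npm1 (nucleophosmin), a histone and ribosome chaperone, stood at -0.21 ± 0.08 in WT (adjusted p = 0.0506) and -0.06 ± 0.08 in Mst1KO (adjusted p = 0.653). Ncl in Mst1KO lost its call without S1 replicate 1 or 2, and the other calls of these genes held.

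More members were called in the step from S2 to S3 than in the step before it in WT. From S1 to S2 in WT only Rrp12 was called, lower by 0.53 ± 0.11 (adjusted p = 0.00698), where 1.14% of all genes were called lower and 3.84% at all, and the call held without any 1 array. From S2 to S3 in WT 11 of 36 members (30.6%) were called lower and none higher, where 13.2% of all genes were called lower and 23.6% at all. These were Wdr12 by 0.88 ± 0.13 (adjusted p = 8.21e-05), Nop16 by 0.61 ± 0.10 (adjusted p = 0.000156) and Nop58 by 0.39 ± 0.08 (adjusted p = 0.00185), with Dkc1, Ncl, Dcaf13, Ebna1bp2, Utp15, Bop1, Gnl3 and Nhp2 between -0.31 and -0.47. The arrays of S2 and S3 did not overlap for 10 of the 11, all but Gnl3, and over all members 14 were lower and 2 (Myc and Imp4) higher without overlap, where 18.7% and 16.3% of all genes were. Without WT S2 replicate 2, WT S2 replicate 3 or WT S3 replicate 3 the count was 7; Wdr12, Nop16, Nop58, Dkc1, Dcaf13 and Ncl kept their calls in all fits without 1 array. When only the 2 groups compared were fitted, 5 members were called. With the filter at the 75th percentile, 1598 of 7500 genes were called lower in this step, a larger share than that of all tested genes.

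In Mst1KO no member was called from S1 to S2, where 6.67% of all genes were called by limma. An unadjusted p under 0.05 was found for 8 of 36 members, all lower, and for 2591 of all 13034 genes. Without Mst1KO S2 replicate 2, Polr1a was called. All genes called in that step split into 492 higher and 378 lower, and into 389 and 484 after centring each array on its median. From S2 to S3 in Mst1KO Myc rose, as above, and 4 of 36 members (11.1%) fell, where 9.18% of all genes were called lower, 8.01% higher and 17.2% at all, a share near that of all genes. They were Gar1 by 0.56 ± 0.17, Gnl3 by 0.33 ± 0.10, Nop16 by 0.31 ± 0.10 and Ncl by 0.26 ± 0.08 (adjusted p = 0.0338, 0.027, 0.0314 and 0.0308). Gnl3, Nop16 and Ncl fell in that step in both genotypes, 27.3% of the WT list and 75% of the Mst1KO list. The Mst1KO count with Myc was 5, and it came to 0 without Mst1KO S2 replicate 1, to 2 without S2 replicate 2 or 3, and to 1 without any of the 3 S3 arrays. After median centring it was 1, and all genes then split into 1215 higher and 901 lower in place of 1044 and 1196.

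No member was called between Mst1KO and WT at any stage. The percentage of all tested genes called by limma was 0.33% at S1, 1.17% at S2 and 3.4% at S3. An unadjusted p under 0.05 was found for 2, 2 and 6 of the 36 members. It was found for 1457, 1741 and 2176 of all 13034 genes, so the members did not stand out by this count. At S3 the differences of 32 of 36 members lay above 0 (88.9%), against 52.1% of all genes, with a median of 0.10 log2 units. The median was 0.02 at S1 and -0.00 at S2, where 21 and 18 members were above 0, against 51.9% and 53.4% of all genes. All 95% confidence intervals at each stage lay within 1 log2 unit of 0, and those of 34 members at S1, 31 at S2 and 27 at S3 within 0.5.

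**Figure D4:**
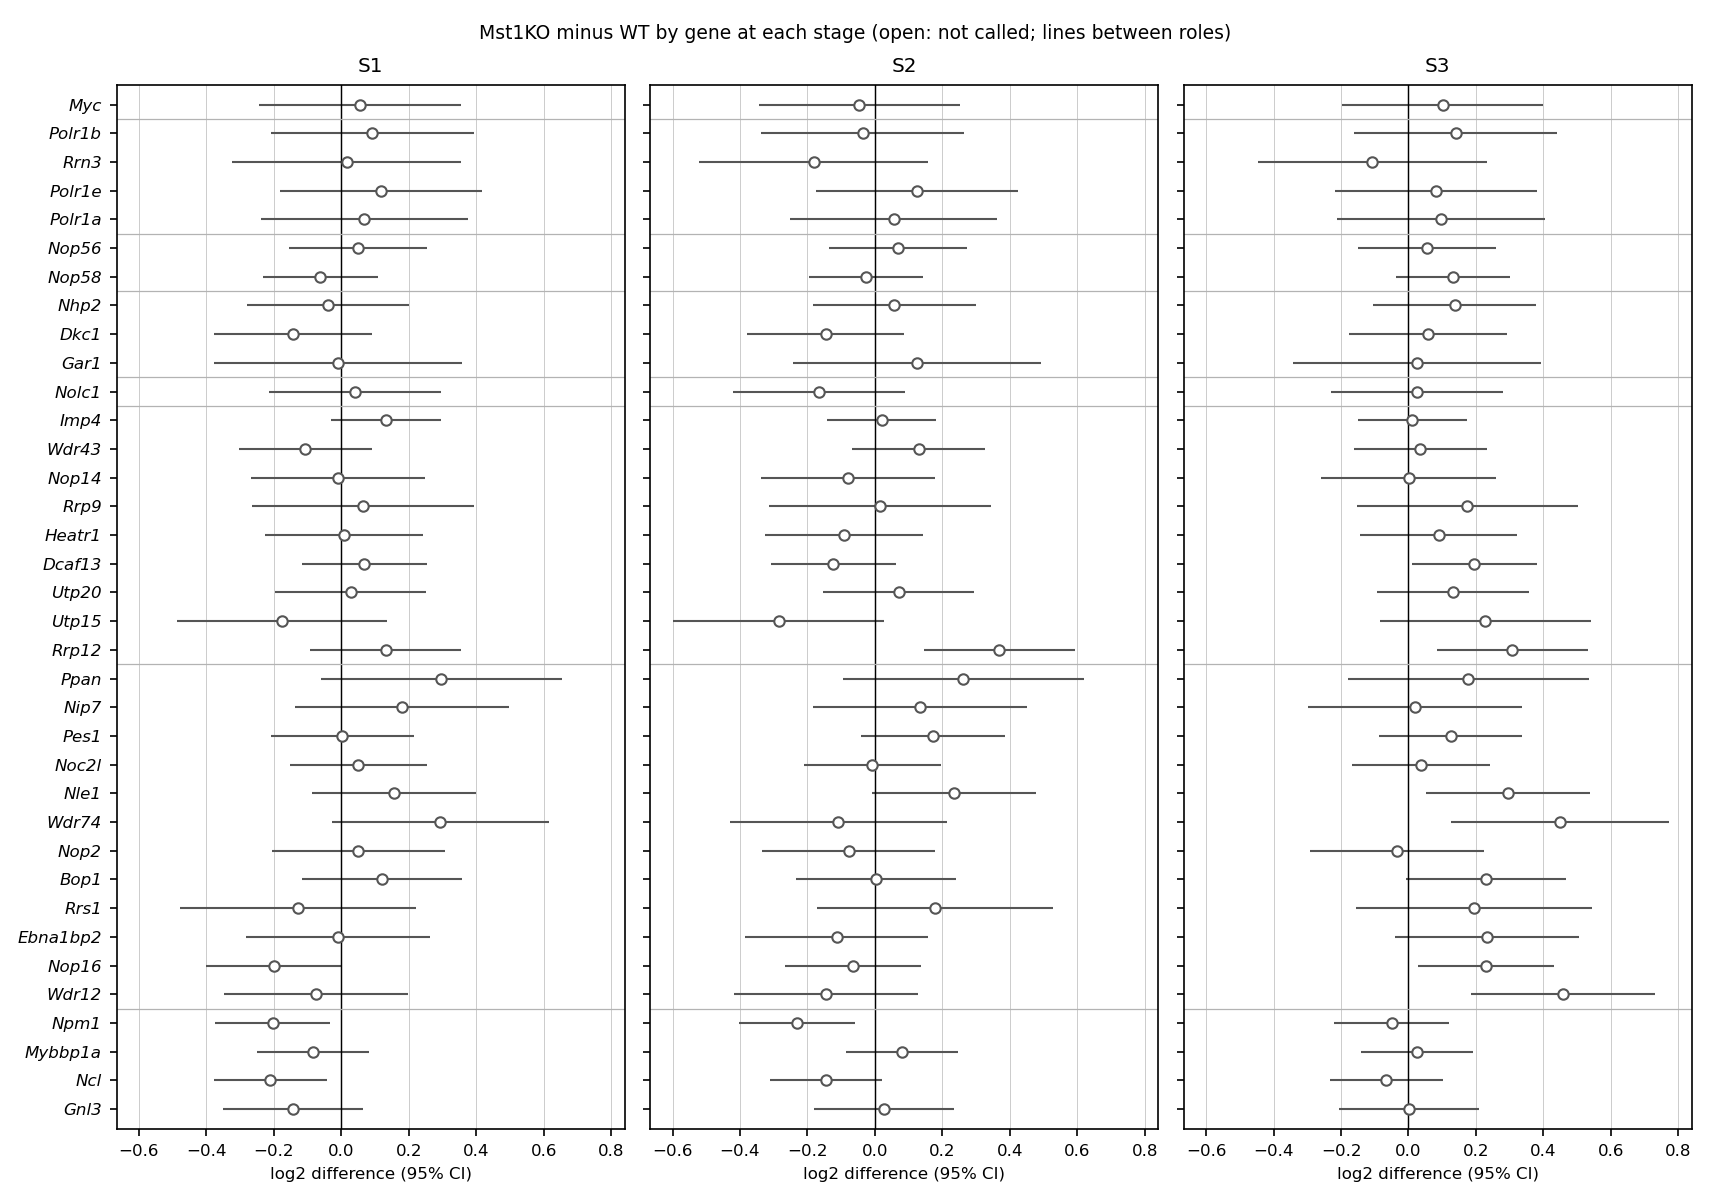
Log2 difference Mst1KO minus WT with 95% confidence interval (x axis) for 36 genes ordered by role (y axis) at S1, S2 and S3; all points are open because none was called. The points scatter around 0 at S1 and S2 and lie mostly to its right at S3, Wdr12 and Wdr74 farthest.

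The largest genotype difference was that of Wdr12 at S3, 0.46 ± 0.13 higher in Mst1KO with a 95% confidence interval from 0.18 to 0.73 and adjusted p = 0.0636. The 3 Mst1KO arrays (7.80, 7.88 and 7.92) lay above the 3 WT arrays (7.30, 7.42 and 7.50), and 4 of 9 other processing settings called it, as did the fits without WT S1 replicate 2 or WT S2 replicate 1. Wdr74, an assembly factor of the large subunit, was 0.45 ± 0.15 higher (adjusted p = 0.131) on arrays that overlapped, 8.55, 8.39 and 8.56 in Mst1KO against 8.10, 8.42 and 7.63 in WT. Without WT S3 replicate 2 it was called, at 0.63. Rrp12 was higher in Mst1KO at S2 and S3 by 0.37 ± 0.11 and 0.31 ± 0.11 (adjusted p = 0.105 and 0.137), without overlap of arrays at either stage. Nle1 and Nop16 followed at S3 with 0.30 ± 0.11 and 0.23 ± 0.10 (adjusted p = 0.194 and 0.23). At S3 8 members were higher and 1 was lower in Mst1KO without overlap, where 13.2% and 9.79% of all genes were. At S1 2 were higher and 4 lower in this way (10.2% and 7.9% of all genes), and at S2 2 and 5 (9.68% and 7.12%).

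In the other direction, Npm1 was lower in Mst1KO at S1 and S2. It measured 12.28, 12.12 and 12.19 in WT against 11.94, 12.03 and 12.01 in Mst1KO at S1, and 12.21, 12.15 and 12.19 against 12.02, 11.97 and 11.86 at S2, without overlap at either stage. The differences were -0.20 ± 0.08 and -0.23 ± 0.08 (adjusted p = 0.342 and 0.204) and -0.05 at S3. Ncl was at -0.21 ± 0.08 at S1 (adjusted p = 0.306), -0.14 at S2 and -0.07 at S3, lower on all Mst1KO arrays at each stage. The Myc differences were 0.06, -0.05 and 0.10 over the 3 stages, with 95% confidence intervals from -0.24 to 0.35, -0.34 to 0.25 and -0.20 to 0.40. All genes called at S3 split into 306 higher and 137 lower in Mst1KO, and into 227 and 171 after a repeated quantile normalization.

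Whether a gene changed differently with stage in the genotypes was tested as an interaction, and no member passed. Of all genes 0.0153% passed for S1 to S2, 0.368% for S2 to S3 and 0.56% for S1 to S3, the last added with that comparison. By limma 0, 5 and 2 of the 36 members had an unadjusted p under 0.05, as did 882, 1464 and 1392 of all 13034 genes. From S2 to S3 Wdr12 fell less in Mst1KO by 0.60 ± 0.18 (95% confidence interval 0.22 to 0.99, adjusted p = 0.193), and Wdr74, Utp15, Dcaf13 and Nop16 differed the same way by 0.56, 0.51, 0.32 and 0.29. From S1 to S3 Nop16 differed by 0.43 ± 0.13 (adjusted p = 0.211) and Wdr12 by 0.53 ± 0.18 (adjusted p = 0.26). A fall called in WT and not in Mst1KO, as for Utp15, Dcaf13, Bop1, Ebna1bp2 and Nop56, was therefore not shown to differ between them.

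Further genes of the pathway were counted in the same way. Of 88 further ribosome biogenesis factors tested, from 89 listed, 31 fell and 1 rose from S1 to S3 in WT and 16 fell and none rose in Mst1KO, with medians of -0.20 and -0.15. The shares called lower were 35.2% in WT, against 18.4% of all genes, and 18.2% in Mst1KO, near the 14.4% of all genes; none was called between genotypes at any stage. Pno1, which acts late in small subunit assembly, fell by 0.84 in WT and 0.62 in Mst1KO, Taf1d, a subunit of the polymerase I selectivity factor, by 0.81 and 0.37, and Rpf2, which helps to bring in the smallest ribosomal RNA, by 0.95 and 0.53. Of 28 growth genes known as MYC targets, from 32 listed, 21 fell and 3 rose in WT and 16 fell and 2 rose in Mst1KO. That is 75% and 57.1% lower, against 18.4% and 14.4% of all genes, and 10.7% and 7.14% higher, against 15.4% and 12.3%. The cell cycle phosphatase Cdc25a fell by 1.56 and 1.07, the mitochondrial chaperone Hspd1 by 0.86 and 0.44, and the one-carbon enzyme Shmt2 by 1.00 and 0.76, while the polyamine enzyme Odc1 rose by 0.63 and 0.39. Gart, a purine synthesis enzyme, was the only one of these 28 called between genotypes, higher in Mst1KO at S3 by 0.40 ± 0.09 (adjusted p = 0.0263).

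In the MYC network, 10 of 11 listed genes were tested. Mxd1 and Mxd4, which pair with MAX and repress E-box genes, rose from S1 to S3 by 1.42 ± 0.16 and 1.26 ± 0.19 in WT and by 1.06 ± 0.16 and 1.21 ± 0.19 in Mst1KO. Mxd3, of the same family, fell by 0.90 ± 0.15 and 0.88 ± 0.15. Max was at 0.11 ± 0.08 in WT and rose by 0.24 ± 0.08 in Mst1KO (adjusted p = 0.359 and 0.0379). Mycn, a paralog of Myc, had the group means 4.42, 5.07 and 4.17 over S1, S2 and S3 in WT and 4.32, 5.16 and 4.90 in Mst1KO. Array medians were 4.81 to 4.93, and Mycn lay above its array's median on 8 of 18 arrays and on none at S1 or at WT S3, so no fold is given for it. It was the only gene of this list called between genotypes, higher in Mst1KO at S3. At S3 2.35% of all genes were called higher, and the call of Mycn rests on WT values below the array medians.

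Genes of mitosis moved with the same stages: all 24 tested fell from S2 to S3 in both genotypes, with medians of -2.60 in WT and -1.78 in Mst1KO, where 13.2% and 9.18% of all genes were called lower. Their mean level ranged over the arrays from 8.23 to 8.69 at S2 and 5.66 to 6.40 at S3 in WT, and from 7.94 to 8.26 and 6.15 to 6.57 in Mst1KO. At S3 2 of the 24 were called higher in Mst1KO and none lower, with a median of 0.54, a share of 8.33% against 2.35% of all genes called higher and 1.05% lower. At S1 and S2 none was called, and 23 and 24 of the 24 lay below 0 in Mst1KO, with medians of -0.17 and -0.33. Of all genes 48.1% and 46.6% lay below 0 at these stages, and of the 36 members 15 and 18 did. The mean level of the 35 ribosome genes went from 8.71 to 8.80 at S2 to 8.48 to 8.59 at S3 in WT, and from 8.70 to 8.81 to 8.59 to 8.72 in Mst1KO. The part of cell division in the results above was not tested.

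Genes listed as markers of other cells also moved with stage. These arrays cannot tell whether the iNKT cells themselves or other cells in the pools express them. From S1 to S3, 15.4% of all genes were called higher and 18.4% lower in WT, and 12.3% and 14.4% in Mst1KO, which is the background for the counts that follow. Of 10 macrophage and dendritic cell genes, 7 rose from S1 to S3 in WT and 9 in Mst1KO, with mean levels from 4.97 to 5.48 at S1, 5.53 to 5.65 at S2 and 6.15 to 6.31 at S3 in WT and from 5.09 to 5.43, 5.91 to 6.11 and 6.39 to 6.86 in Mst1KO. Of 4 NK and innate lymphoid genes tested, 4 and 3 rose. The list's mean level was 4.61 to 4.75 at S1 and 7.17 to 7.33 at S3 in WT. In Mst1KO it was 4.72 to 4.88 and 7.13 to 7.42, with Eomes not above the array median. The S1 levels lay near or below the array medians of 4.81 to 4.93. A gene of these lists can pass the filter through S3 arrays alone, so counts of genes that rose are partly set by the filter. Of 6 conventional T cell genes 3 and 5 fell, the list going from 7.35 to 7.65 at S1 to 6.20 to 6.29 at S3 in WT and from 7.77 to 8.30 to 6.11 to 6.29 in Mst1KO. Of 3 gamma-delta T cell genes 3 fell in WT and 1 in Mst1KO, where 1 rose; the list's mean level at S3 was 5.96 to 6.47 in WT and 7.37 to 7.55 in Mst1KO. Between genotypes, the markers called were all higher in Mst1KO: Itgax (0.93 ± 0.18) and Cd163l1 (0.64 ± 0.12) at S2, and at S3 the gamma-delta genes Blk (2.39 ± 0.30) and Cd163l1 (1.03 ± 0.12), the macrophage gene C1qb (0.94 ± 0.23), the NK gene Tyrobp (0.88 ± 0.19) and the T cell gene Cd5 (0.44 ± 0.09). Of the 36 members, 18 lay above 0 at S2 and 32 at S3, against 53.4% and 52.1% of all genes. A link between the members and these markers was not tested. The mean level of the 4 B cell markers with a probe set was 4.03 to 4.41 over the arrays, with 1 of 5 listed genes tested and none called. Of 6 immature thymocyte genes 2 were tested, Cd24a and Ptcra, and Cd24a rose from S1 to S3 in WT, while Rag2 and Arpp21 were never above the array median. The labels describe the enrichment before sorting as positive selection with CD8 beads, and Cd8b1 had group means of 6.51 to 7.32. The part of these markers in the results was not tested.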

How the data were processed

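RNA (1 to 20 ng) of sorted iNKT cells was amplified and hybridised to Affymetrix mouse gene arrays, 1 per sample, per the labels' protocols. The authors deposited log2 expression per probe set, for which the submitters' processing notes name RMA and Affymetrix Expression Console 1.1. RMA subtracts background and gives all arrays a common distribution, so levels are relative, and dim genes are compressed. Genome build and annotation are not given in the sources used here.

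GEO's platform annotation lists 1 symbol for 23521 of the 41345 probe sets, more than 1 for 1814 and no symbol for 16010. Probe sets with 1 symbol above their array's median on at least 3 arrays were kept (13702), and the brightest stood for a gene. Differences were tested with limma 3.58.1 (R 4.3.3), with a mean for each of 6 groups over all 18 arrays, moderated statistics and Benjamini-Hochberg adjustment over 13034 genes. The number of arrays limits the precision. The tests were tried on simulated data, and the outcome is not given here. Genes named are the members, Stk4, gate and identity genes, marker genes and up to 4 of each further list by lowest p in a comparison. The members and all lists were chosen with earlier results of these data known, and the S1 to S3 comparisons and the ETS motif after seeing the data. Alternatives tried were other filters, normalizations and fits, a block for the replicate number, and fits without each array in turn. The replicate numbers were not treated as pairs, since not every same-numbered pair deviated together with r over 0.1: 3 of 18 did within a genotype (median r 0.0618, against -0.0219 for different numbers) and none of 27 across (0.0293 against -0.0204). That bar is strict and does not exclude a weaker pairing. Whether the numbers mark shared animals or batches is not known. With 3 mice per genotype, arrays of different stages may come from the same animal, and the main stage tests treat them as independent.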

Additional observations from a re-analysis of the deposited data

How the results depend on the processing

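No member changed direction where it was called, under any of 27 alternatives. Between genotypes, 1 member was called at S2 under a variance trend with robust fit, and 1 at S3 under that fit, the filter at the 75th percentile, median centring or array weights; leaving out 1 array gave 0 at S2 and 0 to 1 at S3. From S1 to S2 in WT the count of 1 became 2 with the stricter filter, 3 with the trend fit and 2 with the replicate number as a block; in Mst1KO the 0 became 2 with the trend fit, 1 with the block and 0 to 1 without 1 array. From S2 to S3 in WT the 11 became 7 with array weights, 5 with only the groups compared and 7 to 11 without 1 array; in Mst1KO the 5 became 1 without a filter or with median centring, 3 with only the groups compared and 0 to 5 without 1 array. From S1 to S3 leaving out 1 array gave 9 to 17 in Mst1KO. The replicate block changed no other count by over 1.5 times. Counts over all genes also moved. Between genotypes, 43, 152 and 443 genes at S1, S2 and S3 became 5, 4 and 184 with only the groups compared; 43 became 28 without a filter and 93 with the stricter filter or array weights, 152 became 97 with array weights, and the trend fit gave 128 and 248 at S1 and S2. With only the groups compared, 501 genes from S1 to S2 in WT became 195, 3073 from S2 to S3 became 2037, and the 48 of the S2 to S3 interaction became 15. The 2 genes of the S1 to S2 interaction became 4 with the block, and the 73 of the S1 to S3 interaction became 123 with array weights and 116 with the trend fit. Without 1 array, the counts between genotypes reached down to 9 at S1, 39 at S2 and 200 at S3; from S1 to S2 the 501 in WT reached down to 295 and the 870 in Mst1KO to 530; and the interactions ranged from 2 to 6 (S1 to S2), 25 to 93 (S2 to S3) and 43 to 111 (S1 to S3). The causes were not tested, except that fits of only the groups compared rest on fewer arrays. With 3 arrays a group the median SE of a member's difference was 0.11, so small changes were often not detectable.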

Other observations

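Different probe sets of a gene did not always move together. Nop56, whose transcript hosts small nucleolar RNAs in its introns, had a second probe set above the filter that measured 7.24 ± 0.35 (SD, n = 3) at Mst1KO S2 and stood at 8.06 ± 0.06 at Mst1KO S3, a rise of 0.82 ± 0.19 (adjusted p = 0.0065), while the brightest probe set went from 10.02 ± 0.09 to 10.04 ± 0.11. In WT the second set read 7.94 ± 0.25 and 8.01 ± 0.14 at the same stages. A probe set listing both Snord57 and Nop56, untested here, read 7.07 ± 0.68 and 7.61 ± 0.52 in Mst1KO. For Ppan, a large subunit factor, the brightest probe set did not pass from S1 to S3, at 0.14 ± 0.17 in WT and 0.02 ± 0.17 in Mst1KO, while the second went from 8.81 ± 0.03 to 8.38 ± 0.14 in WT and from 8.95 ± 0.11 to 8.64 ± 0.12 in Mst1KO, called lower in both. The additional probe sets of Npm1 and Rrs1 were not called in any comparison.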
